A study of Mus musculus with 28 samples.

Results

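The cyclins of the D and E classes, their partner kinases and their immediate targets were measured as 10 genes (*Ccnd1*, *Ccnd2*, *Ccnd3*, *Ccne1*, *Ccne2*, *Cdk2*, *Cdk4*, *Cdk6*, *Rb1* and *E2f1*), which were taken by their gene symbols from the 45318 genes of the count files. All 10 passed the filter on low counts at both follow-ups. RNA came from the hearts of Hsd:ICR(CD-1) mice. They had ligation of the left anterior descending coronary artery (MI) or a sham operation (SHAM) on postnatal day 1 or 7. In its discussion the paper places its samples in the remote zone of the left ventricle. It describes its 21-day transcriptome samples as taken distal to the ischemic injury, and its main text gives no separate zone for the 3-day RNA. Samples were taken 3 or 21 days after the operation. At the earlier follow-up the groups operated on day 1 were 1d-SHAM + 3 and 1d-MI + 3 (age 4 days at sampling) and those operated on day 7 were 7d-SHAM + 3 and 7d-MI + 3 (age 10 days), with n = 4 libraries each. At the later follow-up the day 1 groups were 1d-SHAM + 21 and 1d-MI + 21 (age 22 days) and the day 7 groups 7d-SHAM + 21 and 7d-MI + 21 (age 28 days), with n = 3 libraries each. The labels name no engineered allele. The tissue was not sorted into cell types, so that cardiomyocytes and all other cells of the tissue contributed RNA. In some 21-day libraries atrial marker genes were high, as given below.

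Cyclins of the D class bind CDK4 and CDK6 in response to growth signals, and the complexes phosphorylate the retinoblastoma protein RB1. Phosphorylated RB1 releases E2F factors such as E2F1, which switch on the genes of DNA replication together with the E cyclins, and the E cyclins with CDK2 phosphorylate RB1 further and start S phase. In the mouse heart cardiomyocytes stop dividing in the first week after birth, while fibroblasts, endothelial cells and immune cells keep the ability to divide.

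In the GRCm38 coordinates of the deposited files, *Ccnd1* (ENSMUSG00000070348) lies at chr7:144929931-144939925, *Ccnd2* (ENSMUSG00000000184) at chr6:127125162-127152193 and *Ccnd3* (ENSMUSG00000034165) at chr17:47505051-47599691. The E cyclin genes lie at chr7:38097984-38107534 (*Ccne1*, ENSMUSG00000002068) and chr4:11191351-11204779 (*Ccne2*, ENSMUSG00000028212). The kinase genes lie at chr10:128697939-128705051 (*Cdk2*, ENSMUSG00000025358), chr10:127063534-127067920 (*Cdk4*, ENSMUSG00000006728) and chr5:3341485-3531008 (*Cdk6*, ENSMUSG00000040274). *Rb1* (ENSMUSG00000022105) lies at chr14:73183673-73325822 and *E2f1* (ENSMUSG00000027490) at chr2:154559407-154569892. The values are the deposited counts of each gene, scaled within a follow-up to CPM (counts for each 1000000 counts of the library). Levels of different genes were compared only as CPM per kilobase of the gene length recovered from the deposited files.

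The total count per library was 33077962 to 51942648 at 3 days and 40514177 to 168550985 at 21 days. The follow-ups differed in library kit and sequencer and were not compared with each other. The share of counts on ribosomal RNA genes was at most 0.196% at 3 days and ran from 0.524% to 78.0% at 21 days. At 3 days the libraries of 1d-MI + 3 held 27324 to 35932 genes with a count and those of the 7-day groups 19446 to 22316. Within 1d-SHAM + 3 replicates 1 and 2 held 28454 and 30025 against 20612 and 20069 in replicates 3 and 4. The deviation of GC-rich minus that of GC-poor genes from their mean over the 3-day libraries (log2) was -0.56 to -0.15 in 1d-SHAM + 3. It was -0.24 to 0.35 in 1d-MI + 3, -0.24 to 0.16 in 7d-SHAM + 3 and 0.01 to 0.17 in 7d-MI + 3. The animal names in the labels start with prefixes that no group shares with another, so that prefix and group cannot be told apart. All 7 cardiomyocyte markers were detected in all groups. Between libraries of a group, expression varied with a biological coefficient of variation of 0.331 (3 days) and 0.567 (21 days). A gene was called changed at an adjusted p under 0.05 (quasi-likelihood test of edgeR, Benjamini-Hochberg adjusted over the 20345 genes tested at 3 days or the 24646 at 21 days), and all adjusted p-values are from this test unless another tool is named.

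Among the cyclins of 1d-SHAM + 3, *Ccne2* had the highest level per kilobase with 27.1 ± 6.11 CPM per kb (SD, n = 4), followed by *Ccnd1* with 21.1 ± 6.11 CPM per kb, a difference within their spread. *Cdk4*, the main D-cyclin kinase gene of this tissue by level, followed with 12.0 ± 1.87 CPM per kb and *Ccnd2* with 11.5 ± 1.49 CPM per kb, which did not differ beyond their spread. *Cdk6* (1.26 ± 0.168 CPM per kb) and *Ccnd3* closed the order. In 7d-SHAM + 3 the order had changed, with *Ccnd1* first (18.7 ± 1.25 CPM per kb), *Ccnd2* next (16.2 ± 1.37 CPM per kb), *Ccne2* in the fourth place (8.57 ± 0.901 CPM per kb) and *Ccne1* last (0.732 ± 0.210 CPM per kb). In 7d-MI + 3 the order of the means began in the same way. *Ccnd1* was at 17.3 ± 2.31, *Ccnd2* at 16.7 ± 5.61, *Cdk4* at 13.0 ± 1.57 and *Ccne2* at 12.5 ± 2.10 CPM per kb. The differences among these means were smaller than the SD of *Ccnd2*. *Cdk6* (4.14 ± 1.05 CPM per kb) stood above *Cdk2* (3.66 CPM per kb) by less than its spread.

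**Figure D1:**
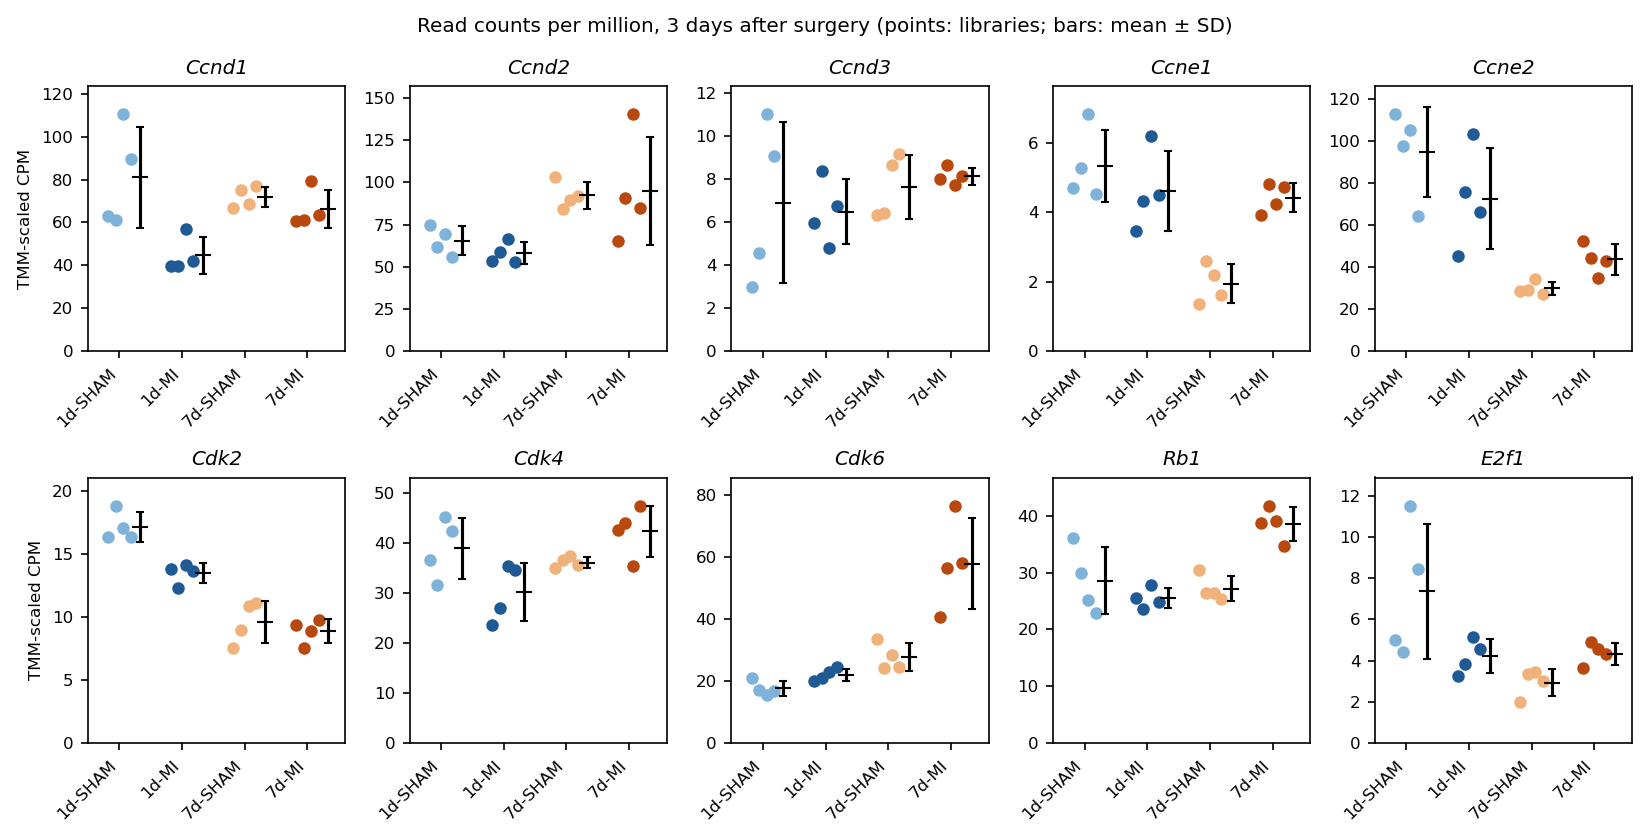
CPM of the 10 genes 3 days after surgery (y axis, linear from 0, TMM-scaled CPM) by group (x axis). Each point is a library and the bars show the mean ± SD (n = 4). The means of *Ccnd1*, *Ccne1*, *Ccne2*, *Cdk2* and *E2f1* were highest in 1d-SHAM. Libraries of 1d-SHAM overlapped those of 1d-MI for *Ccne1*, *Ccne2* and *E2f1*, and those of 7d-SHAM for *Ccnd1*. *Cdk6* was highest in 7d-MI with 40.6 to 76.6 CPM.

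The first comparison asked how the sham-operated heart tissue differed between 4 and 10 days of age. At the older age both E cyclins, *Cdk2* and *E2f1* were lower and *Cdk6* was higher, and no D cyclin, *Cdk4* or *Rb1* change passed the test. In all, 1 of the 10 genes rose and 4 fell, against 20.3% of all genes called in this comparison, and 6 of the 10 had groups apart, against 21.4% of all genes. The median log2 fold change was -0.14 over the 10 genes and -0.13 over all genes tested.

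*Ccne2*, an S-phase entry cyclin that activates CDK2, had 113, 97.5, 105 and 64.2 CPM in 1d-SHAM + 3 and 28.6, 29.3, 34.5 and 27.3 CPM in 7d-SHAM + 3. The lowest younger library was above the highest older one, and the log2 fold change was -1.66 (SE 0.21, 95% interval -2.10 to -1.23, adjusted p = 2.7e-05). *Ccne1*, the other E cyclin, had 4.72, 5.29, 6.82 and 4.53 CPM in 1d-SHAM + 3 and 1.36, 2.60, 2.2 and 1.63 CPM in 7d-SHAM + 3. The groups did not overlap, and the log2 fold change was -1.45 (SE 0.23, 95% interval -1.93 to -0.97, adjusted p = 2.1e-04). *Cdk2*, the kinase of the E cyclins, fell from 17.1 ± 1.17 to 9.61 ± 1.66 CPM (SD, n = 4), with libraries at 16.3, 18.8, 17.1 and 16.3 CPM against 7.55, 8.98, 10.8 and 11.1 CPM. These ranges were apart as well, and the log2 fold change of *Cdk2* was -0.83 (SE 0.14, 95% interval -1.12 to -0.54, adjusted p = 3.5e-04).

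Promoter sequences of *Ccne1* and *Cdk2* are shown because the cyclin gene and its kinase gene fell together. RefSeq promoters (GRCm38.p6) matched 6 of the 10 genes, and *Ccne2* was not among them. The stretch from 250 to 51 bases before the start was read on the coding strand, 5′ to 3′, with capitals at GC boxes (the letters GGGCGG on either strand) and at E2F letters (TTTCCCGC, TTTCGCGC, TTTGCCGC or TTTGGCGC on either strand). The *Ccne1* stretch (chr7:38107541-38107740, minus strand) held 3 GC boxes and no E2F letters, and the *Cdk2* stretch (chr10:128705102-128705301, minus strand) held 3 GC boxes and 1 match to TTTCCCGC on the reverse strand at -140.
Ccne1: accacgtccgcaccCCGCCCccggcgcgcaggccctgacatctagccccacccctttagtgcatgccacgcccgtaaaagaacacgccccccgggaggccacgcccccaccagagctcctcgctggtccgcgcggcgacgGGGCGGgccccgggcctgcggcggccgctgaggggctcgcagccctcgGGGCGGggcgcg
Cdk2: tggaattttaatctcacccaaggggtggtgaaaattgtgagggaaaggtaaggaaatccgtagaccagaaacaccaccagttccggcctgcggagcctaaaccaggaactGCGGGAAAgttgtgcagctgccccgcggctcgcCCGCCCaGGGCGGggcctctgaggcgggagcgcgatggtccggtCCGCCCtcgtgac
Of 32851 promoters of the same length, 1.46% held E2F letters and 24.6% a GC box. The stretches of *Ccnd3*, *Cdk4*, *Cdk6* and *E2f1*, which are not shown, held no E2F letters. A match is a description of letters only.

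*E2f1*, the activating factor held by RB1, had 5.02, 4.44, 11.5 and 8.46 CPM in 1d-SHAM + 3 and 1.97, 3.34, 3.43 and 2.99 CPM in 7d-SHAM + 3. All younger libraries were above all older ones, with a wide spread among the younger (7.36 ± 3.29 CPM), and the log2 fold change was -1.32 (SE 0.27, 95% interval -1.88 to -0.77, adjusted p = 0.0019). Replicates 1 and 2 of 1d-SHAM + 3 carry another animal name prefix than replicates 3 and 4, and against the first prefix alone the log2 fold change of *E2f1* was -0.63 (adjusted p = 0.063). In limma-voom with a random block for the name prefix, the adjusted p was 0.065 for *E2f1* and 0.079 for *Cdk6*.

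*Cdk6*, the other kinase of the D cyclins, had 20.9, 17.0, 15.5 and 16.8 CPM in 1d-SHAM + 3 and 33.6, 24.2, 28.6 and 24.6 CPM in 7d-SHAM + 3. The older libraries were all higher, with a log2 fold change of 0.66 (SE 0.16, 95% interval 0.32 to 1.00, adjusted p = 0.0086). *Ccnd2*, the D cyclin with the largest shift, was at 65.6 ± 8.49 CPM against 92.3 ± 7.83 CPM. Its groups did not overlap, but its log2 fold change of 0.49 (SE 0.17, 95% interval 0.13 to 0.86) had an adjusted p of 0.051, and it passed in 10 alternatives with adjusted p between 0.013 and 0.049. *Ccnd1* (log2 fold change -0.17, adjusted p = 0.49), *Ccnd3* (0.15, 0.74), *Cdk4* (-0.11, 0.62) and *Rb1* (-0.07, 0.73) gave no call, and their groups overlapped. *Ccnd3* was at 2.99 and 4.57 CPM in the first-prefix libraries of 1d-SHAM + 3 and at 10.98 and 9.06 CPM in the others, and against the first prefix alone its log2 fold change was 1.08 (adjusted p = 0.0016).

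Of the other genes of the RB-E2F pathway, 58 of 60 listed genes were tested and 2 were higher and 32 lower in 7d-SHAM + 3 than in 1d-SHAM + 3, with a median log2 fold change of -0.79. E2F target genes of replication fell in 13 of 14 cases (median -0.99), and the S and M phase cyclins in 4 of 4 cases tested (median -1.81). The genes of smallest p were *Foxm1*, a transcription factor of mitotic genes, at 2.17 against 8.19 CPM (log2 fold change -1.91, SE 0.21, adjusted p = 1.0e-05), *E2f7*, a repressing E2F, at 1.65 against 5.14 CPM (-1.64, adjusted p = 5.2e-05), and *Cdkn2d*, an inhibitor of CDK4 and CDK6, at 7.87 against 21.6 CPM (-1.46, adjusted p = 6.2e-05). The higher genes were *Fbxw7*, whose product marks cyclin E for degradation, at 76.3 against 38.6 CPM (0.98, SE 0.12, adjusted p = 2.4e-05), and *Fbxo31*, an F-box protein gene linked to cyclin D turnover, at 9.66 against 5.05 CPM (0.94, adjusted p = 0.0056).

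Cell type markers moved between the same shams. In 7d-SHAM + 3, 5 of 7 cardiomyocyte, 5 of 6 fibroblast, 3 of 5 endothelial and 4 of 5 macrophage markers were higher, and summed macrophage markers were at 63.5 to 91.4 CPM against 25.5 to 37.1 CPM. Summed mural markers were at 1446 to 1499 CPM in 7d-SHAM + 3 against 742 to 967 CPM in 1d-SHAM + 3. The part of these cell types in the changes of the cyclins and kinases was not tested. In such bulk tissue fewer cells of a type and less RNA per cell cannot be told apart.

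**Figure D2:**
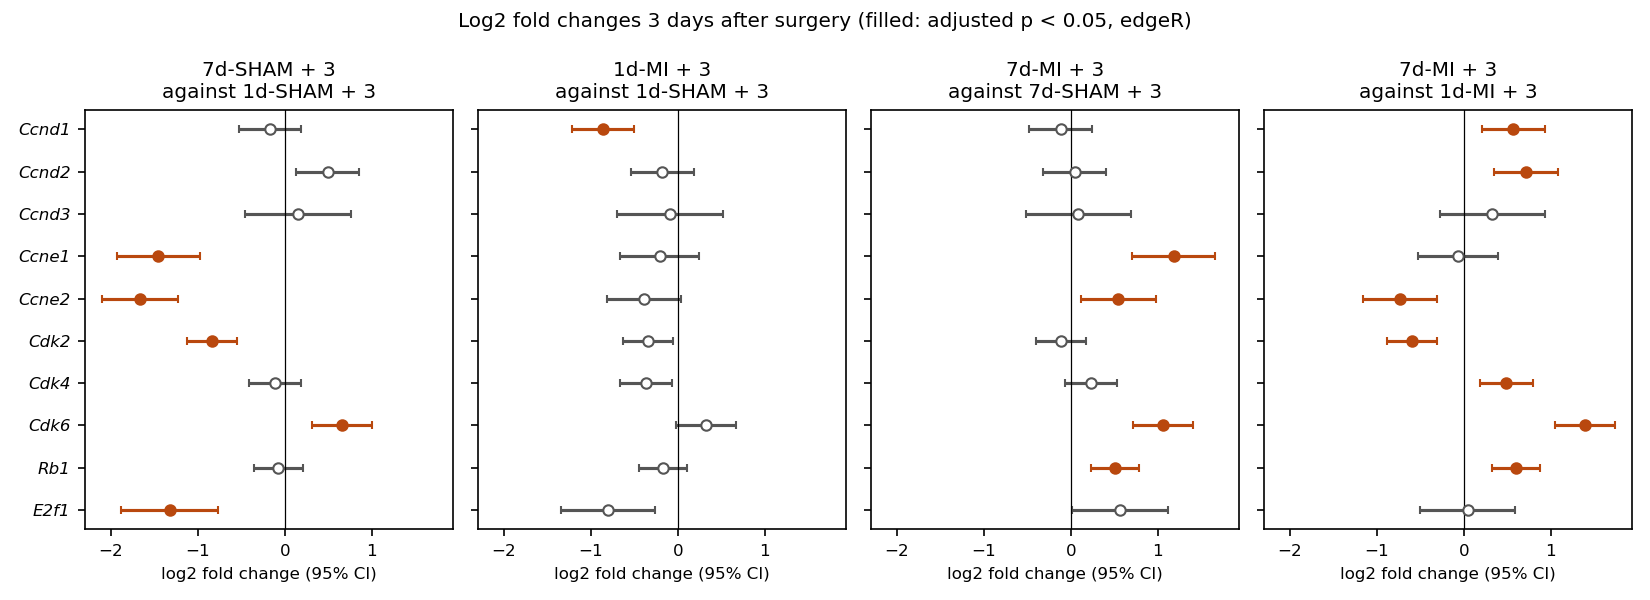
Log2 fold change (x axis, with 95% interval as a bar) of the 10 genes (y axis) in 4 comparisons 3 days after surgery. Filled points have an adjusted p under 0.05 by edgeR, which held for 5 genes between the shams, 1 gene after MI at day 1, 4 genes after MI at day 7 and 7 genes between the MI groups.

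The next comparison asked what MI on postnatal day 1 did to these genes within 3 days. *Ccnd1*, the growth-signal-induced D cyclin gene, was the only one of the 10 to pass, and it fell (8.46% of all genes were called). In 2 of the 10 genes the groups were apart, against 12.2% of all genes. *Ccnd1* was at 63.1, 61.1, 110.3 and 89.5 CPM in 1d-SHAM + 3 and at 39.7, 39.7, 57.2 and 42.1 CPM in 1d-MI + 3. The groups did not overlap, and the log2 fold change was -0.86 (SE 0.17, 95% interval -1.22 to -0.50, adjusted p = 0.0062). The call was lost with 1d-SHAM + 3 of the first prefix alone, replicates 1 and 2 (log2 fold change -0.48, adjusted p = 0.14), and when the 2 groups were fitted alone (-0.87, adjusted p = 0.075). The share of all genes called fell with it, to 1.74% and 0.826%.

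*Cdk2* was at 13.8, 12.3, 14.1 and 13.6 CPM in 1d-MI + 3, below all 1d-SHAM + 3 libraries, with a log2 fold change of -0.35 (SE 0.14) that did not pass. *E2f1* was at 3.27, 3.84, 5.16 and 4.56 CPM in 1d-MI + 3. Its groups overlapped and the log2 fold change of -0.80 (SE 0.26) had an adjusted p of 0.058. *E2f1* passed in 8 alternatives, among them 1d-SHAM + 3 of the second prefix alone (-1.24, adjusted p = 0.0014), where 23.1% of all genes were called. The remaining genes had log2 fold changes between -0.39 (*Ccne2*) and 0.32 (*Cdk6*). The median over the 10 genes was -0.28, against 0.06 over all genes tested.

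The pathway list held 2 higher and 7 lower genes in 1d-MI + 3, with a median log2 fold change of -0.25. The higher ones were *E2f2*, an activating E2F, at 3.79 against 1.72 CPM (log2 fold change 1.14, adjusted p = 0.024) and *Myc*, an inducer of cell growth genes, at 4.6 against 3.00 CPM (0.62, adjusted p = 0.039). Lower were *Fbxw7* at 23.1 against 38.6 CPM (-0.74, adjusted p = 0.0024), *Cdkn1c*, the CDK inhibitor p57, at 27.6 against 43.5 CPM (-0.65, adjusted p = 0.0080), and *Rbl2*, a relative of RB1, at 16.4 against 23.4 CPM (-0.51, adjusted p = 0.019). Summed neutrophil markers were at 17.7 to 22.8 CPM against 3.17 to 6.70 CPM in the shams, and 3 of 3 tested neutrophil markers were higher. Of the other markers, 1 of 5 macrophage and 1 of 2 tested atrial markers were higher, 2 of 5 endothelial markers and 1 of 7 cardiomyocyte markers were lower, and 1 of 6 fibroblast markers went each way. Summed endothelial markers were at 220.3 to 338 CPM against 330.3 to 351 CPM, and summed mural markers at 446 to 698 CPM against 742 to 967 CPM. The part of these cells in the fall of *Ccnd1* was not tested.

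The same question was asked of MI on postnatal day 7. *Ccne1*, *Ccne2*, *Cdk6* and *Rb1* were higher in 7d-MI + 3 than in 7d-SHAM + 3 and no gene of the 10 passed as lower. Of all genes 34.0% were called, 19.8% higher and 14.2% lower, so that 4 of 10 was near the share over all genes. In 5 of the 10 genes the groups were apart, against 37.4% of all genes. The median log2 fold change was 0.37 over the 10 genes and 0.08 over all genes tested. The shams are those of the comparison between ages, so that the falls with age and the rises after MI share these 4 libraries.

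*Ccne1* was at 3.92, 4.82, 4.23 and 4.73 CPM in 7d-MI + 3, against 1.36, 2.60, 2.2 and 1.63 CPM in 7d-SHAM + 3. The groups were apart, and the log2 fold change was 1.18 (SE 0.23, 95% interval 0.70 to 1.66, adjusted p = 4.2e-04). *Cdk6* was at 40.6, 56.5, 76.6 and 58.1 CPM, against 33.6, 24.2, 28.6 and 24.6 CPM. All MI libraries were above all sham libraries, and the log2 fold change was 1.06 (SE 0.16, 95% interval 0.72 to 1.40, adjusted p = 4.4e-05). *Rb1*, the gene of the pocket protein that the kinases act on, was at 38.7, 41.8, 39.1 and 34.6 CPM against 30.5, 26.4, 26.4 and 25.4 CPM. The *Rb1* groups did not overlap either, with a log2 fold change of 0.51 (SE 0.13, 95% interval 0.23 to 0.78, adjusted p = 0.0056). These 3 calls held in all 20 alternatives.

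*Ccne2* was at 52.6, 44.6, 34.7 and 42.8 CPM in 7d-MI + 3, against 28.6, 29.3, 34.5 and 27.3 CPM. The nearest libraries were 34.7 and 34.5 CPM, and the log2 fold change was 0.54 (SE 0.21, 95% interval 0.12 to 0.97, adjusted p = 0.046). The call was lost in 12 of 20 alternatives, with adjusted p up to 0.14, among them the removal of replicate 1, 2 or 4 of either group. *E2f1* was at 3.62, 4.89, 4.54 and 4.30 CPM against 1.97, 3.34, 3.43 and 2.99 CPM, without overlap, and its log2 fold change of 0.56 (SE 0.27) had an adjusted p of 0.11. The D cyclins (log2 fold changes -0.12, 0.04 and 0.09 for *Ccnd1*, *Ccnd2* and *Ccnd3*), *Cdk2* (-0.11) and *Cdk4* (0.23, adjusted p = 0.24) gave no call.

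Of the 58 pathway genes tested, 27 were higher and 7 lower in 7d-MI + 3, with a median log2 fold change of 0.54. E2F target genes of replication rose in 9 of 14 cases and the S and M phase cyclins in 3 of 4. *Myc* was at 11.3 against 2.10 CPM (log2 fold change 2.42, adjusted p = 3.1e-08), *Foxm1* at 10.1 against 2.17 CPM (2.22, adjusted p = 3.0e-07) and *E2f7* at 7.15 against 1.65 CPM (2.11, adjusted p = 7.2e-07). Lower were *Cdkn1c* at 13.0 against 39.3 CPM (-1.59, adjusted p = 1.1e-07), *Fbxw7* at 33.7 against 76.3 CPM (-1.18, adjusted p = 6.9e-07) and *Fbxo31* at 4.67 against 9.66 CPM (-1.05, adjusted p = 8.7e-04).

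Markers of other cells moved with these groups. All 5 macrophage markers were higher in 7d-MI + 3, with summed levels of 174 to 237 CPM against 63.5 to 91.4 CPM, and 3 of 3 tested neutrophil markers were higher, with summed levels of 28.9 to 59.8 against 2.17 to 4.01 CPM. Of the fibroblast markers 4 of 6 were higher and 2 lower, and 5 of 7 cardiomyocyte markers were lower. Summed mural markers were at 858 to 1229 CPM in 7d-MI + 3 against 1446 to 1499 CPM. The part of these cell types in the rises of *Ccne1*, *Ccne2*, *Cdk6* and *Rb1* was not tested.

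**Figure D3:**
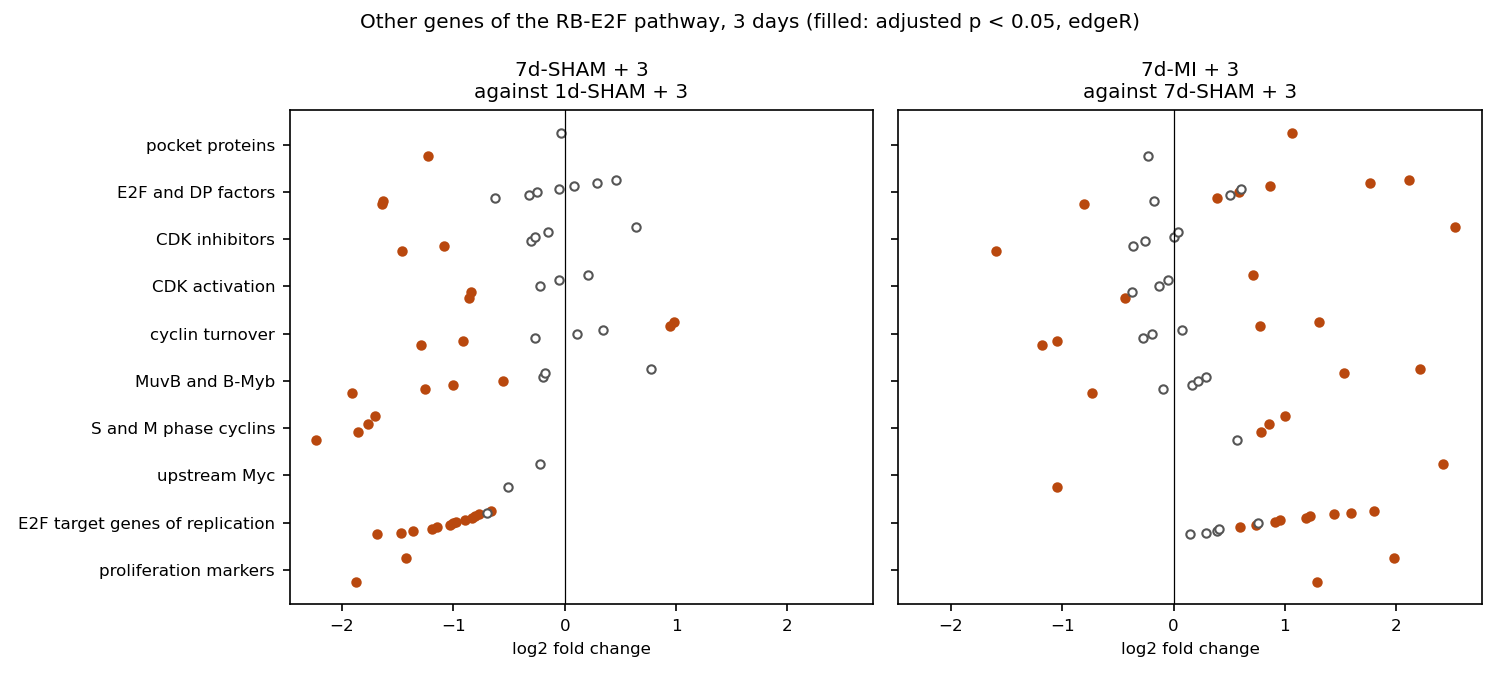
Log2 fold change (x axis) of the 58 other RB-E2F pathway genes tested (points, in 10 sublists on the y axis) between the shams of both ages and after MI at day 7. Filled points have an adjusted p under 0.05 by edgeR; in the first comparison 32 genes were lower and 2 higher, in the second 27 were higher and 7 lower.

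Between the MI groups, 7d-MI + 3 against 1d-MI + 3, 5 of the 10 genes were higher and 2 lower, against 43.0% of all genes called, and 4 of the 10 had groups apart, against 40% of all genes. *Cdk6* differed most, at 57.9 ± 14.7 against 22.0 ± 1.93 CPM (log2 fold change 1.40, SE 0.16, adjusted p = 3.8e-06), and its groups were apart. *Ccnd1* (0.57, SE 0.17, adjusted p = 0.012) and *Rb1* (0.60, SE 0.13, adjusted p = 0.0016) were higher with groups apart. *Ccnd2* (0.71, SE 0.18, adjusted p = 0.0032) and *Cdk4* (0.49, SE 0.14, adjusted p = 0.011) were higher with overlapping groups. *Cdk2*, at 8.90 ± 0.968 against 13.5 ± 0.789 CPM, fell with groups apart (-0.60, SE 0.14, adjusted p = 0.0020), and *Ccne2* fell with overlap (-0.73, SE 0.20, adjusted p = 0.0077). *Ccnd3* (0.33), *Ccne1* (-0.07) and *E2f1* (0.04) gave no call.

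Upper-quartile scaling ended the calls of *Ccnd1* (adjusted p = 0.087) and *Cdk4* (adjusted p = 0.090), and an offset for GC content, added after the data were seen, ended that of *Ccne2* (adjusted p = 0.060). The pathway list held 9 higher and 10 lower genes here, with a median log2 fold change of 0.07. *Myc* (1.29, adjusted p = 1.7e-05), *Fbxw7* (0.54, adjusted p = 0.0018) and *Mki67*, a marker of dividing cells, at 423 against 211 CPM (1.00, adjusted p = 0.0063) were higher. *Cdkn1c* (-1.08, adjusted p = 8.0e-06), *Cdkn2d* (-1.15, adjusted p = 1.6e-04) and *Mnat1*, a subunit of the CDK-activating kinase, at 24.0 against 43.8 CPM (-0.87, adjusted p = 5.3e-04) were lower. Macrophage (5 of 5), fibroblast (6 of 6), mural (5 of 5) and endothelial (4 of 5) markers were higher in 7d-MI + 3.

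The MI effect at day 7 minus that at day 1 was then tested directly, from the same 16 libraries as the comparisons above. It was positive and passed for 6 of the 10 genes, against 13.1% of all genes called. *Ccne1* had a difference of 1.39 on the log2 scale (SE 0.32, adjusted p = 0.0071), and *E2f1* of 1.36 (SE 0.37, adjusted p = 0.019). *Ccne2* (0.93, SE 0.29, adjusted p = 0.038), *Ccnd1* (0.74, SE 0.24, adjusted p = 0.048), *Cdk6* (0.74, SE 0.23, adjusted p = 0.039) and *Rb1* (0.67, SE 0.19, adjusted p = 0.023) passed as well. *Cdk4* had 0.60 with an adjusted p of 0.058.

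The number of calls depended on the setting. *Ccnd1* lost its call in 22 of 29 alternatives, *Ccne2* and *Cdk6* in 18, *Rb1* in 8, *E2f1* in 3 and *Ccne1* in 1, and no gene passed in limma-voom with a random block for the name prefix. With that block *Ccne1* had a difference of 1.46 (adjusted p = 0.051). For *E2f1* the difference ran from 0.74 to 1.82 over the alternatives. With 1d-SHAM + 3 of the first prefix alone its adjusted p was 0.16. In the pathway list 25 genes had a higher and 2 a lower effect at day 7, with a median of 0.78 against 0.03 over all genes tested. They included 11 of 14 E2F target genes of replication and 4 of 4 S and M phase cyclins, with *Foxm1* (2.64, adjusted p = 1.1e-04), *Myc* (1.80, adjusted p = 3.3e-04) and *E2f7* (1.96, adjusted p = 6.0e-04) of smallest p. *Cdkn1c* (-0.94, adjusted p = 0.0036) and *Fbxo31* (-1.09, adjusted p = 0.024) had a lower effect at day 7.

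The share of each gene in its set, from CPM per kilobase, was described without a test. *Cdk6* made up 9.67% ± 2.10 (SD, n = 4) of the *Cdk4* and *Cdk6* level in 1d-SHAM + 3 and 14.7% ± 1.51 after MI at that age. It made up 15.1% ± 2.23 in 7d-SHAM + 3 and 24.2% ± 6.56 after MI at day 7. With the lengths used, 3249 bases for *Cdk4* and 13989 for *Cdk6*, *Cdk4* was the larger of the pair in all 16 libraries. In CPM, *Cdk6* was at 40.6, 56.5, 76.6 and 58.1 in 7d-MI + 3, and *Cdk4* at 42.6, 44.0, 35.3 and 47.4. *Ccne1* made up 7.05% ± 1.44, 7.91% ± 0.935, 7.82% ± 1.91 and 11.9% ± 2.12 of the E cyclin level in the order 1d-SHAM, 1d-MI, 7d-SHAM, 7d-MI. Among the D cyclins, *Ccnd1* had 62.4% ± 6.85 in 1d-SHAM + 3, with 54.9% and 58.3% in replicates 1 and 2 (first prefix) and 68.1% and 68.4% in replicates 3 and 4. Its mean was 50.2% to 52.3% in the other groups, whose libraries reached 56.2%, and *Ccnd3* had 2.26% to 3.35% in all 4 groups.

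**Figure D4:**
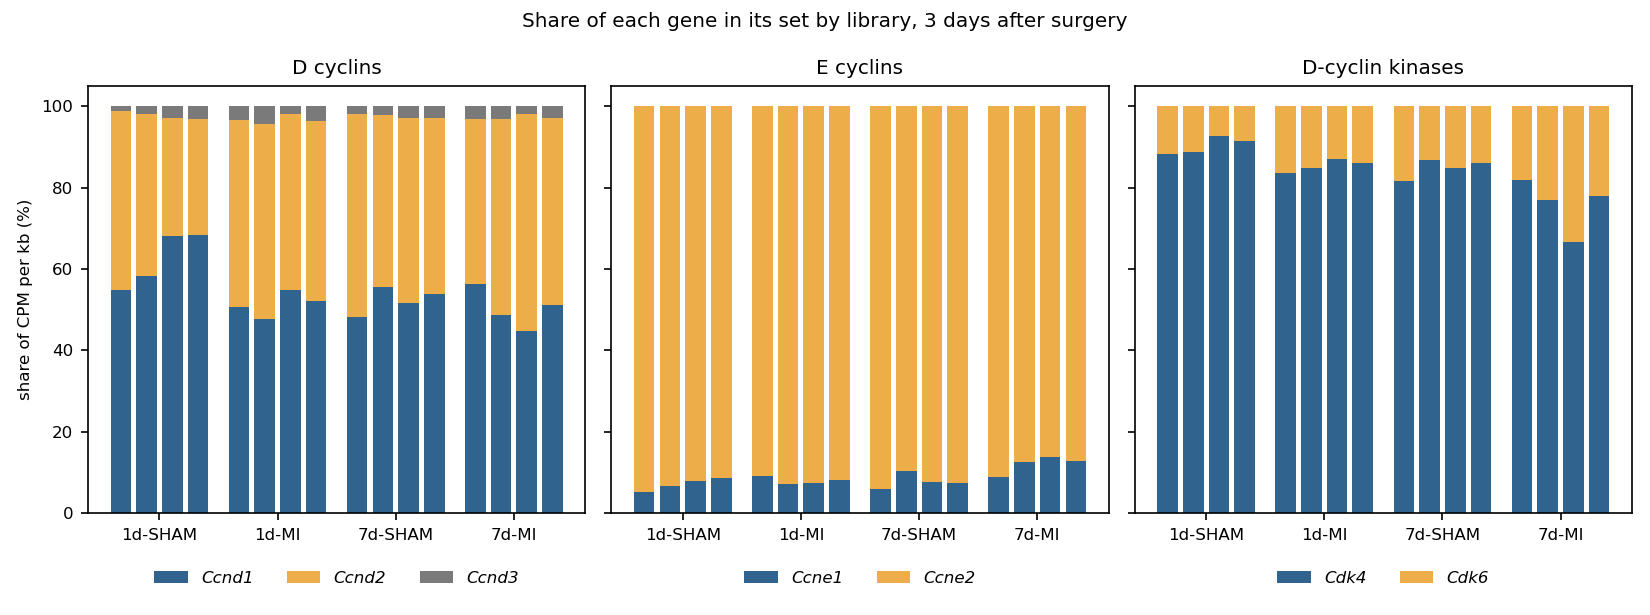
Share of each gene in the summed CPM per kb of its set (y axis, %) for each library (bars, 4 per group on the x axis) 3 days after surgery, for the D cyclins, the E cyclins and the D-cyclin kinases. *Cdk6* reached 18.1% to 33.5% of its set in 7d-MI + 3 and 7.38% to 11.7% in 1d-SHAM + 3.

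Genes whose log2 CPM followed those of the genes that changed between the shams were sought over the 16 libraries at 3 days among 8751 protein-coding genes with a mean of at least 5 CPM. These libraries include the groups compared, so that the correlations hold the group differences. *Ccne2* was close to *Chek1* (Pearson r = 0.975) and *Spc25* (0.959), *Ccne1* to *Fignl1* (0.942), *Topbp1* (0.940) and *Nuf2* (0.933), and *Cdk2* to *Ska2* (0.944), *Cenpp* (0.929) and *Gm11096* (0.917). *Cdk6* was closest to *Wasf2* (0.980), *Polr2a* (0.978) and *Mycbp2* (0.976), and *E2f1* to *Med19* (0.902), *Yeats4* (0.893) and *Tuba1b* (0.889).

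At 21 days *Cdk4* had the highest mean level per kilobase in 3 groups. It was at 9.15 ± 2.39 CPM per kb in 1d-SHAM + 21, 14.2 ± 1.74 in 1d-MI + 21 and 8.06 ± 4.87 in 7d-SHAM + 21 (SD, n = 3). In 7d-SHAM + 21 *Ccnd2* (7.12 ± 1.36 CPM per kb) and *Ccnd1* (6.69 ± 6.50 CPM per kb) were within that spread. There *Ccnd1* was above *Cdk4* in replicate 1 and *Ccnd2* was above it in replicates 2 and 3. *Ccnd2* had the highest mean in 7d-MI + 21 (14.9 ± 5.58 CPM per kb), with *Cdk4* (10.5 ± 3.42 CPM per kb) within its spread. *Ccne1* and *E2f1* were last in each group with 0.319 to 0.526 CPM per kb. None of the 10 genes passed edgeR's test in any of the 5 comparisons at 21 days, where 0.0%, 0.0162%, 0.0%, 0.0325% and 0.0% of all genes were called for the shams, for MI at day 1, for MI at day 7, between the MI groups and for the difference of the MI effects. At an unadjusted p under 0.05 in edgeR the counts were 0, 0, 2, 1 and 1. At an adjusted p under 0.05 they were 0, 0, 1, 1 and 0 by DESeq2 and 0 in all 5 by limma-voom. Over all genes the shares were 1.79%, 14.6%, 16.7%, 6.52% and 3.76% at an unadjusted p under 0.05, and DESeq2 called 0, 328, 1028, 208 and 44 of 24646 genes.

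*Ccnd2*, a D cyclin, had the largest log2 fold change of the 10 genes after MI at day 7 and between the MI groups. It was at 109, 48.8 and 97.6 CPM in 7d-MI + 21, at 49.6, 35.6 and 36.7 CPM in 7d-SHAM + 21, and at 36.4, 29.5 and 32.4 CPM in 1d-MI + 21. The 7d-MI + 21 libraries overlapped those of 7d-SHAM + 21 by a single library (48.8 against 49.6 CPM) and were above all of 1d-MI + 21. The log2 fold change was 1.07 (SE 0.33, adjusted p = 0.22) against 7d-SHAM + 21 and 1.37 (SE 0.33, adjusted p = 0.22) against 1d-MI + 21. DESeq2 gave adjusted p-values of 0.033 and 0.0014 for these.

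*Cdk4* was at 39.8, 48.6 and 50.3 CPM in 1d-MI + 21 and at 37.9, 28.9 and 22.5 CPM in 1d-SHAM + 21, the only gene of the 10 with groups apart in that comparison, where 27.4% of all genes were apart. *Ccnd2* was the only one apart between the MI groups, where 16.3% of all genes were apart. None was apart between the shams (4.26% of all genes) or between 7d-MI + 21 and 7d-SHAM + 21 (12.6%). *Ccnd1* was at 47.2, 47.3 and 27.7 CPM in 1d-MI + 21 and at 14.4, 29.6 and 10.7 CPM in 1d-SHAM + 21. These groups overlapped, and the log2 fold change was 1.16 (SE 0.57, adjusted p = 0.36).

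*Ccne2* was at 7.04, 4.48 and 7.78 CPM in 1d-SHAM + 21. The 7d-MI + 21 libraries had 3.64, 4.67 and 3.08 CPM and their shams 4.24, 9.39 and 7.19 CPM, with overlap. After MI at day 7 the log2 fold change of *Ccne2* was -0.87 (SE 0.37, adjusted p = 0.27). Without replicate 1 of 7d-SHAM + 21, 4 genes passed in that comparison, namely *Ccnd1* (1.73, adjusted p = 0.011), *Ccnd2* (1.28, adjusted p = 0.021), *Cdk4* (1.03, adjusted p = 0.047) and *Ccne2* (-1.09, adjusted p = 0.038). In that setting 21.6% of all genes were called, against 0.0% with all libraries. The deviation of GC-rich minus that of GC-poor genes from their mean over libraries (log2) was 0.59 in the library left out and -1.08 and -0.79 in the other shams of the group. Counts spread evenly over the genome, estimated from olfactory, vomeronasal and taste receptor genes, could make up as much as 94.7% of the *Ccne1* count and 46.5% of the *E2f1* count in single 21-day libraries, against at most 11.3% for any of the 10 genes at 3 days. Atrial markers summed to 2.90 to 14.96 CPM in 7d-SHAM + 21 and 96.0 to 673 CPM in 7d-MI + 21, and fibroblast markers to 845 to 1476 CPM and 2460 to 3718 CPM (1432 to 2062 CPM in 1d-MI + 21). Endothelial markers summed to 130.3 to 233 CPM in 7d-SHAM + 21 and 234 to 398 CPM in 7d-MI + 21, and adipocyte markers to 0.277 to 7.06 CPM and 11.1 to 17.8 CPM. Their part in the values of *Ccnd2* was not tested.

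The remaining genes gave no call at 21 days. *Cdk6* had group means of 20.3 to 24.6 CPM and *Rb1* of 18.4 to 26.1 CPM. *Cdk2* had group means of 8.40 to 11.1 CPM, and *Ccnd3* of 22.7 to 39.3 CPM with SDs of up to 12.2 CPM. None of the 58 pathway genes tested passed edgeR's test at 21 days in any of the 5 comparisons. At an unadjusted p under 0.05 in edgeR their counts were 0, 11, 3, 6 and 3 in the order given above. Of all genes 1.79%, 14.6%, 16.7%, 6.52% and 3.76% stood there. At an adjusted p under 0.05 DESeq2 called 0, 2, 0, 1 and 0 pathway genes, and limma-voom called 0 in all 5.

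**Figure D5:**
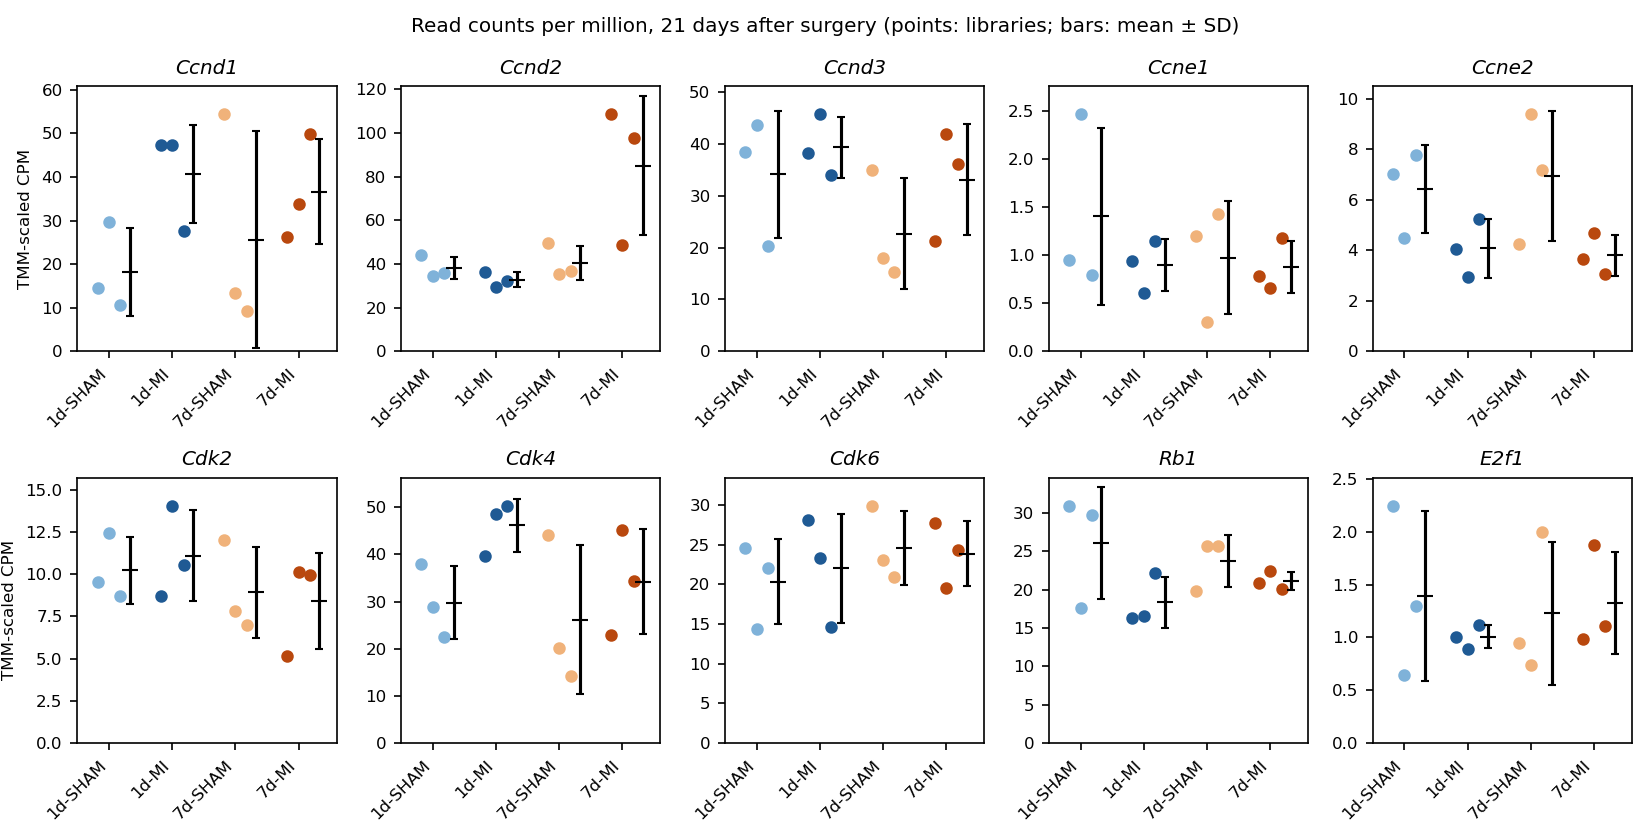
CPM of the 10 genes 21 days after surgery (y axis, linear from 0, TMM-scaled CPM) by group (x axis), with a point for each library and bars for the mean ± SD (n = 3). *Ccnd2* in 7d-MI + 21 had 48.8 to 109 CPM, and no gene passed edgeR's test.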

How the data were processed

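The authors deposited, for each library, a table of gene counts together with CPM, RPKM and their log2 values. Only the deposited counts were tested. The authors' CPM and RPKM columns served to recover gene lengths, and the log2 columns were not used. The submitters' processing notes name TopHat2 2.0.11, Bowtie2 2.2.2, Cufflinks 2.2.1 and GRCm38, while the program that counted reads, its strand option and its gene annotation are not given in the sources used. Reads from genes that overlap may therefore be mixed. RNA was total RNA, prepared with a TruSeq stranded kit at 3 days and a ScriptSeqV2 kit at 21 days. A pair of 21-day libraries deposited as 2 lanes each was summed.

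Each follow-up was fitted alone with edgeR 4.0.16 in R 4.3.3 (filterByExpr with a minimum count of 10 and a minimum total of 15, TMM scaling, a mean for each group, robust quasi-likelihood test, Benjamini-Hochberg adjustment over all genes tested, threshold 0.05). Printed CPM are after TMM scaling. Each SE was derived from the log2 fold change and its F statistic. Self-tests on simulated counts were run before use. Alternatives were a change of scaling (RLE, upper-quartile, or TMM after removal of the 20 most abundant genes), a change of filter (none, or a mean count of at least 50), DESeq2 1.42.0, limma-voom (limma 3.58.1) with and without a random block for the animal name prefix, a block for the replicate number, the compared groups alone, each name prefix of 1d-SHAM + 3 alone, removal of each library, and counts less a background estimated from 1380 receptor genes. An offset for transcript GC content (GENCODE M21) and 21-day libraries of at most 50% ribosomal RNA alone were added after the data were seen. Python 3.11.15, pandas 2.3.3 and numpy 2.4.6 were used for summaries.

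The text gives all 10 genes. It names, for each 3-day comparison, up to 3 pathway genes of smallest p in each direction among those that passed, and, for genes that passed between the 3-day shams, the 3 genes of highest Pearson correlation, of which 1 is not reported here. The genes, lists and tests were chosen with earlier results of these data known. Replicate numbers follow accession order and were not taken as pairs. Each library carries its own animal name, and p-values measure the spread between these libraries. No 2 libraries of 1 group agreed within sampling noise.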

Additional observations from a re-analysis of the deposited data

Results flagged for a closer look

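In 40 groups of 4 libraries (10 genes at 3 days), the highest or lowest library was set against Dixon's 95% critical value for its gap over the group's range, a criterion that chance passes in about 1 in 20 groups. *Ccnd1* passed it in 1d-MI + 3, where the highest library had 57.2 CPM (ratio 0.863), and in 7d-MI + 3, where the highest library had 79.4 CPM (ratio 0.853). Both are replicate 3 of their group.

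The effect of MI differed between operation on day 7 and on day 1 at the 3-day follow-up for 6 genes by the test of the difference itself (edgeR, log2 scale, adjusted over all genes, of which 13.1% passed). In limma-voom with a random block for the name prefix none of the 6 passed, and 4.17% of all genes did. *Ccnd1* lost its call in 22 of 29 alternatives and *Ccne2* and *Cdk6* in 18 each. The call of *E2f1* ended with 1d-SHAM + 3 of the first prefix alone (adjusted p = 0.16). The difference was 1.39 for *Ccne1* (adjusted p = 0.0071), 1.36 for *E2f1* (adjusted p = 0.019), 0.93 for *Ccne2* (adjusted p = 0.038), 0.74 for *Ccnd1* (adjusted p = 0.048), 0.74 for *Cdk6* (adjusted p = 0.039) and 0.67 for *Rb1* (adjusted p = 0.023). For *Ccne1* the MI effect was 1.18 at day 7 and -0.21 at day 1, and for *E2f1* it was 0.56 and -0.80. *Ccnd1* fell after MI at day 1 (-0.86) and was at -0.12 at day 7.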

How the results depend on the processing

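For the shams at 3 days 5 genes passed in the analysis as reported, and 3 with a random block for the name prefix. The share of all genes called went from 20.3% to 5.96%. For 1d-MI + 3 the count of 1 became 2 without a filter, by DESeq2 and with the replicate block, 3 with the GC offset (chosen after seeing the data), 0 with the compared groups alone and with the first name prefix alone, and 4 with the second, while the share of all genes called went from 8.46% to 7.34%, 13.7%, 10.5%, 10.8%, 0.826%, 1.74% and 23.1% in this order. For the difference of the MI effects the count of 6 became 3 under RLE scaling, without the 20 most abundant genes and by limma-voom. It became 2 under upper-quartile scaling and 0 with the prefix block. The share of all genes called went from 13.1% to 12.6%, 12.9%, 11.7%, 13.6% and 4.17% in this order. At 21 days DESeq2 gave 1 in 7d-MI against 7d-SHAM and 1 in 7d-MI against 1d-MI, where it called 4.17% and 0.844% of all genes. Leaving out a library gave 5 to 5 for the shams, 1 to 4 for 1d-MI (4 when 1d-MI + 3 lost replicate 3, 3 when 1d-SHAM + 3 lost replicate 2, 2 when it lost replicate 1), 3 to 4 for 7d-MI, 7 to 7 between MI groups and 2 to 7 for the difference of effects (2 when replicate 2 or 4 of 7d-SHAM + 3 or replicate 2 of 7d-MI + 3 was removed, and 3 when replicate 1 of 1d-SHAM + 3, replicate 1 or 2 of 1d-MI + 3, replicate 3 of 7d-SHAM + 3 or replicate 4 of 7d-MI + 3 was removed). Over all genes, leaving out a library called 10.8% to 23.2% for the shams, 3.05% to 15.1% for 1d-MI and 25.5% to 28.6% for 7d-MI. It called 35.4% to 43.7% between MI groups and 8.25% to 13% for the difference of effects. At 21 days leaving out a library gave 0 to 4 for 7d-MI against 7d-SHAM (4 without 7d-SHAM + 21 replicate 1, with 5903 of 27303 genes called over all) and 0 to 0 elsewhere. The cause was not tested.

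Replicate numbers share no stated animal, litter or day. In 1d-MI + 3 against 1d-SHAM + 3 same-numbered libraries correlated at 0.131 to 0.514 in their deviations, and 2 of 4 were closest to their own number. With the block *E2f1* passed there (-0.76, adjusted p = 0.033). The block gave 6, 2, 5, 7 and 5 genes in the 5 comparisons at 3 days and 0 in each at 21 days. Of all genes it called 19.1%, 10.5%, 33.6%, 42.6% and 12.8% at 3 days, and at most 0.0527% at 21 days. Over 100 single fold changes and 2080 alternative values, 1952 stayed on their side of the threshold, 38 passed newly and 90 no longer passed, with no reversal of a called value. In 122 of the alternative values that did not pass, the sign turned. Among the scalings at 21 days the median of all genes shifted by up to -0.34 (7d-MI against 7d-SHAM, upper-quartile scaling). Upper-quartile scaling at 3 days shifted the median of all genes by 0.15 for 1d-MI + 3, by -0.24 between the MI groups at 3 days and by -0.24 for the difference of effects, and turned the higher and lower calls over all genes from 834 and 888 to 1109 and 304, from 3956 and 4789 to 2506 and 6684, and from 1833 and 829 to 1019 and 1753. The GC offset turned the calls for the shams from 1652 and 2473 to 2012 and 1893, and RLE scaling gave 897 and 598 for 1d-MI + 3 and 1484 and 1070 for the difference. The prefix block was not run at 21 days, where each group has 1 prefix. At 21 days 3 libraries per group with a biological coefficient of variation of 0.567 set the precision of each value.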
